A study of Mus musculus with 15 samples.

Results

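Cytosolic ribosomal protein genes were followed in 15 RNA-seq libraries of mouse hippocampus, library by library. Genes of the Ensembl annotation of mm9 were taken when their symbol began with Rpl or Rps and a digit, or was Rplp0, Rplp1, Rplp2 or Rpsa, leaving out the Rps6k kinases and symbols ending in "-ps" with or without a number. The rule used names only and took 85 of the 37310 genes in the count table. Of these, 76 carry the name of a standard ribosomal protein and 9 are paralogs or genes with a related name (Rpl3l, Rps27l, Rpl39l, Rpl22l1, Rpl36al, Rps19bp1, Rpl10l, Rps4y2 and Rpl7l1). A gene was tested when over 10 reads were counted in over 5 of the libraries, which 83 of the 85 and 18008 genes in all met. The 2 that did not meet it were Rpl39l, with 0 to 8 reads per library, and Rpl10l, with 0 reads in each of the 15 libraries.

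The study measured RNA levels after contextual fear conditioning, in which a mouse learns that a chamber goes with a foot shock. All animals were wild-type C57BL/6J males of 2 months. The FC group was trained with 1 shock (1.5 mA, 2 s) and its hippocampi were taken 30 min later. The RT group was trained in the same way, was returned to the chamber for a 5 min retrieval test 24 h later, and was dissected 30 min after that test. CC animals were handled but not trained. Each group held 5 libraries, each from the pooled left and right hippocampi of 1 mouse, numbered 3, 5, 6, 7 and 8, and a sequencing lane held 1 library of each group. Whole hippocampus was used, so that a change in the share of a cell type and a change of RNA per cell cannot be told apart.

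The ribosome reads mRNA and builds protein, and the genes described here encode the protein part of its small and large subunits. Each ribosome is assembled with about equal amounts of these proteins, and their mRNAs are typically short, abundant and stable. Most begin with a 5' terminal oligopyrimidine tract, a run of C and T at the first transcribed base through which mTOR signalling sets their translation. Protein synthesis in the hippocampus is required for lasting fear memory, and phosphorylation of Rps6 is a common sign of recent neuronal activity. Counts of mRNA, as here, do not measure either translation or phosphorylation.

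Pyrimidine runs near the annotated start were found for some of these genes. RefSeq start windows (GRCm38.p6) of 30 bases, 15 on each side of the annotated start, were at hand for 63 of the 85 genes, with 75 windows in all. Capitals mark the longest run of C and T where it holds at least 8 bases, and these genes are shown because the results below come back to each of them. The windows lie at chr14:18270972-18271001 (Rpl15, minus strand), chr7:4792950-4792979 (Rpl28, plus), chr17:27635230-27635259 (Rps10, minus), chr9:120571502-120571531 (Rpl14, plus), chr4:86857353-86857382 (Rps6, minus), chr3:90213634-90213663 (Rps27, minus), chr5:115559452-115559481 (Rplp0, plus) and chr10:80292416-80292445 (Rps15, plus).
Rpl15: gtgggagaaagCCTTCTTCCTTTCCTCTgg
Rpl28: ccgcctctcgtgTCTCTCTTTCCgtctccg
Rps10: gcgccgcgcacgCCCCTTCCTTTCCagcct
Rpl14: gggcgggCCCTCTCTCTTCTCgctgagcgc
Rps6: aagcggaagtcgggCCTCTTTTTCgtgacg
Rps27: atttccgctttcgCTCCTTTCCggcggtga
Rplp0: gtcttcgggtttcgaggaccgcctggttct
Rps15: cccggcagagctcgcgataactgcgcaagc
A run of at least 8 touched the 15 bases on either side of the start in 32 of the 75 windows (42.7%), against 5788 of all 32851 RefSeq windows of the same kind (17.6%). The letters TTTCC stood in 25.3% of the windows on either strand and in 22.7% on the forward strand, against 8.75% and 4.58% of all windows. Rplp0 and Rps15 have no such run in these windows, which says only that the letters are absent there. A match is a description of the sequence and not a tested site.

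The coding sequences carry a second feature that bears on the counts. Ribosomal protein mRNAs have been copied back into the genome many times, and 79 of the 85 genes had at least 1 intronless copy in mm9 (at least 90% identity over at least 80% of the coding sequence), with 1038 copies in all. The deposited counts used only read pairs that mapped to a single place, and reads were 100 bases long. In 76 of the 85 genes at least 1 stretch of 100 coding bases occurred exactly somewhere else in the genome. Stretches of 60 bases from the middle of the coding sequence are given for 4 genes whose copy is exact here and for Rpl4, whose nearest copy differs at 2 positions. The copies lie, in mm9, at chr1:129935323-129935382 on the plus strand inside Zranb3 (Rpl28-ps1), chr2:172335077-172335136 on the minus strand (the pseudogene Gm14303, copy of Rps29), chr2:75029475-75029534 on the minus strand (the pseudogene Gm13654, copy of Rps6), chr1:14855570-14855629 on the plus strand (Rpl5-ps1), and chr1:144990524-144990583 on the minus strand with no annotated gene (copy of Rpl4). Capitals in the last pair mark the positions that differ.
Rpl28 and its copy: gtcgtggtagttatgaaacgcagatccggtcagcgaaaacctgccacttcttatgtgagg
Rps29 and its copy: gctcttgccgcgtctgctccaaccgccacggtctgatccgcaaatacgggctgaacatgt
Rps6 and its copy: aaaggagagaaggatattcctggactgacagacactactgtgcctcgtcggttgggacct
Rpl5 and its copy: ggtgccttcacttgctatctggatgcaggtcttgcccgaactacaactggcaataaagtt
Rpl4: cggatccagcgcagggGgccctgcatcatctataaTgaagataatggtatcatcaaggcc
copy of Rpl4: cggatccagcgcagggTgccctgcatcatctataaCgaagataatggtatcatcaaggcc

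Libraries held 35731428 to 62555543 reads counted in genes. Counts were scaled to the upper quartile of each library (UQ counts), and a second set of models added 5 factors of unwanted variation (RUVs) estimated from the study's 625 negative control genes, 18 of which are ribosomal protein genes. FC3 and RT3 stood apart from the other 13 libraries. The first RUVs factor was 1.04 in FC3 and 0.547 in RT3, against 0.0164 to 0.151 in the others, and the second ran from -1.21 to -0.728 in the 3 libraries numbered 8 against -1.78 to -1.42 elsewhere. The medians of the group comparisons are given with and without FC3 and RT3.

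Ribosomal protein genes took nearly the same share of the reads in 13 of the 15 libraries. The share ran from 0.604% to 0.684% in the 5 CC libraries, from 0.597% to 0.635% in the 4 FC libraries besides FC3, and from 0.594% to 0.713% in the 4 RT libraries besides RT3. It was 1.64% in FC3 and 1.06% in RT3. Ribosomal protein pseudogenes were taken by name, here and below, as the 163 genes with such a symbol holding "-ps". Pseudogenes under other names, such as Gm14303 and Gm13654, are not among them. The pseudogenes so named showed the same 2 libraries high, with 0.228% in FC3 and 0.147% in RT3 against 0.0750% to 0.0953% in the others.

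The level of the genes in a library was taken as the mean, over the genes, of the log2 UQ count (plus 1) minus the gene's mean over all libraries. On this scale CC3, CC5, CC6, CC7 and CC8 were at -0.22, -0.06, -0.04, -0.24 and -0.04. FC3 was at 1.15, and FC5, FC6, FC7 and FC8 at -0.18, -0.21, -0.14 and -0.17. RT3 was at 0.56, and RT5, RT6, RT7 and RT8 at -0.11, -0.15, 0.01 and -0.16. FC3 was highest and RT3 next, and the other FC and RT libraries lay within or close to the range of CC. The group means were -0.12 ± 0.10 (SD, n = 5) in CC, 0.09 ± 0.59 in FC and 0.03 ± 0.31 in RT. Without the libraries numbered 3 they were -0.09 ± 0.10, -0.17 ± 0.03 and -0.10 ± 0.08 (SD, n = 4), so that the order of FC and CC turned with that choice. Within a library number, FC minus CC was 1.37 for number 3 and -0.12, -0.17, 0.10 and -0.13 for numbers 5 to 8, and RT minus CC was 0.78 for number 3 and -0.05, -0.11, 0.24 and -0.12. Apart from number 3, the sign thus varied between numbers in both comparisons. FC minus RT was 0.58 for number 3 and -0.07, -0.06, -0.14 and -0.01 for numbers 5 to 8. On this scale FC was thus above RT in number 3 and below it in the other 4. For number 8 the order turned with the measure, since the share of reads was 0.597% in FC8 and 0.594% in RT8. After RUVs the level of the genes ran from -0.035 to 0.043 over the 15 libraries.

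**Figure D1:**
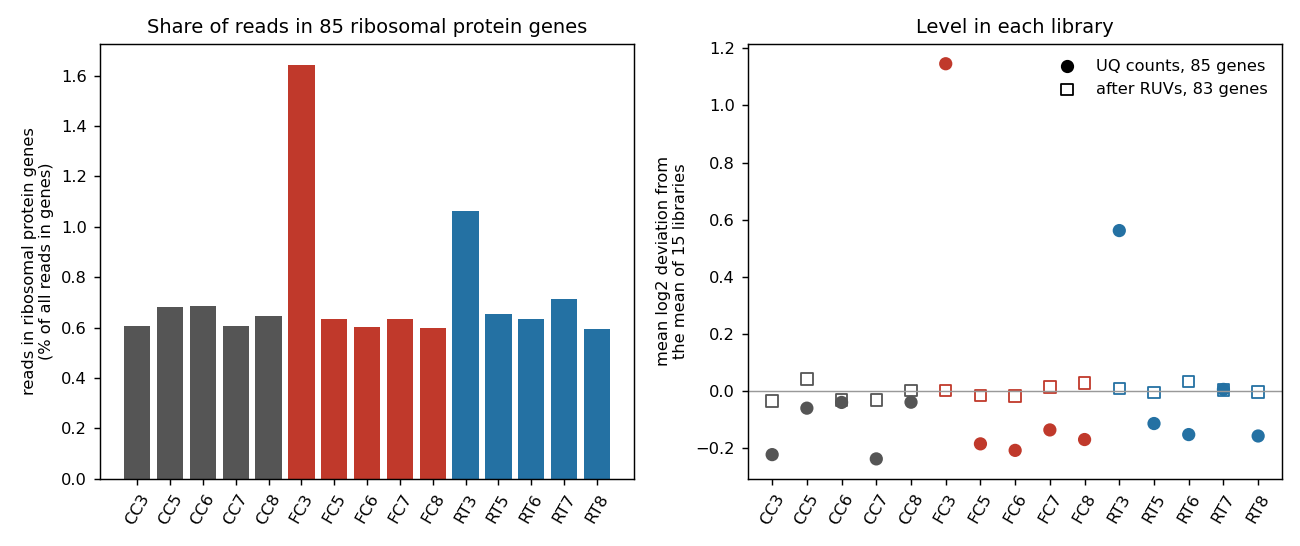
Reads in the 85 ribosomal protein genes as a percent of all reads in genes (left) and the level of the genes on the log2 scale, averaged over genes and centred on the 15 libraries (right), with libraries along the x axis and coloured by group. FC3 (1.64% and 1.15) and RT3 (1.06% and 0.56) lie above the other 13 libraries, which lie between 0.594% and 0.713% and between -0.24 and 0.01.

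FC3 was the highest of the 15 libraries for 80 of the 83 tested genes, against 36.2% of all 18008 tested genes. FC3 was highest and RT3 next for 73 of the 83, against 28.7% of all genes. Rpl3l, Rpl5 and Rpl7a were the 3 for which FC3 was not highest. The difference between FC3 and the median of the other 4 FC libraries ran from 0.18 to 2.01 on the log2 scale with a median of 1.41, which is 1.13-fold to 4.04-fold with a median of 2.65-fold, and it was above 0 for 83 of 83 genes. The median of all tested genes for the same difference was 0.00. RT3 differed from the median of the other RT libraries by -0.12 to 1.05, with a median of 0.71 and 82 of 83 genes above 0. CC3 went the other way and was below the median of the other CC libraries for 75 of 83 genes, by -0.49 to 0.17. Over the 83 genes the FC3 and RT3 differences had a Pearson r of 0.883 (Spearman rho 0.836), a description over genes measured in the same 2 libraries.

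**Figure D2:**
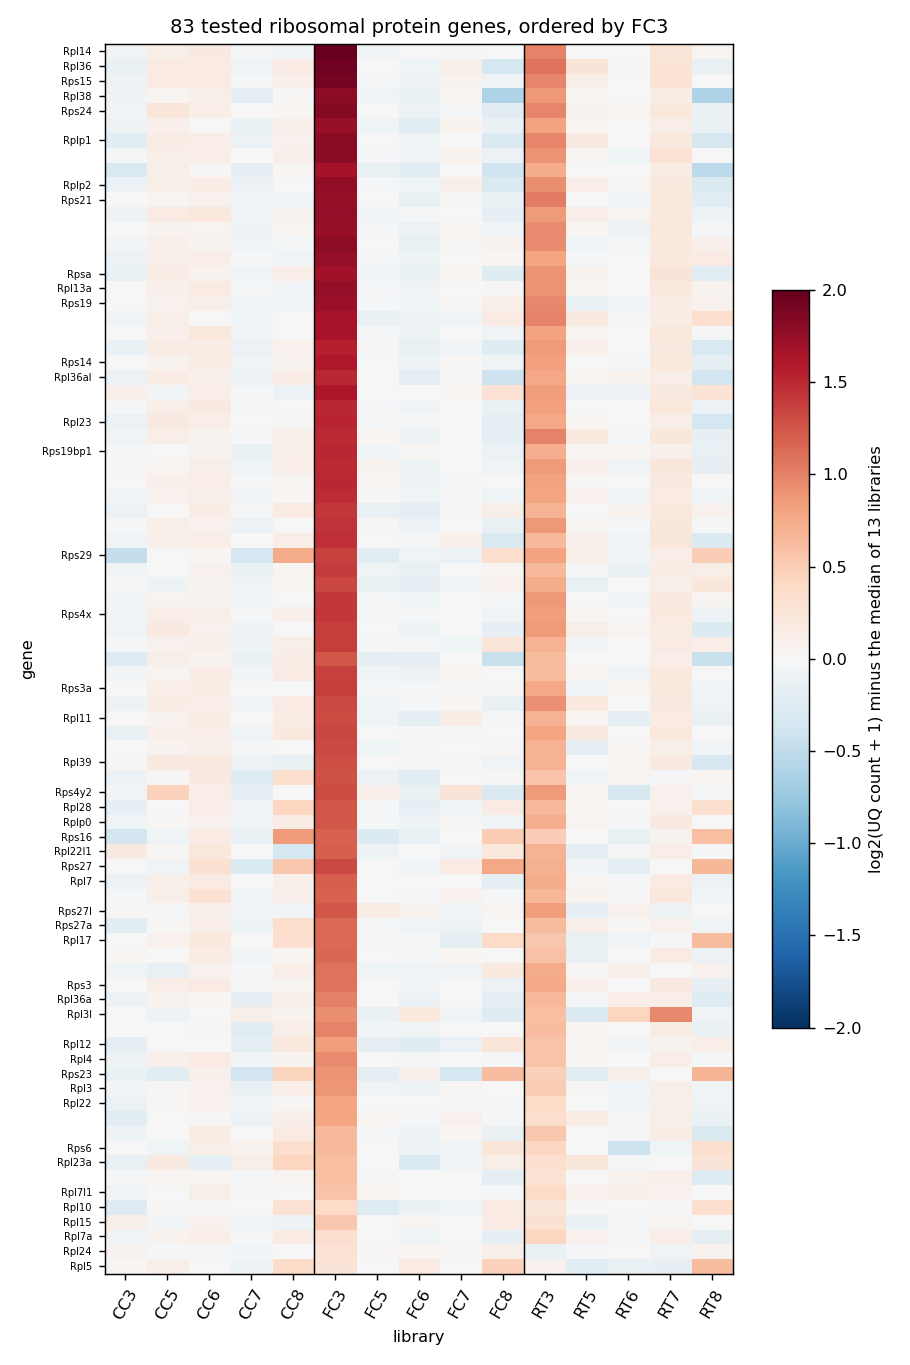
Log2 UQ count of each tested ribosomal protein gene (rows, a subset labelled) in each library (columns), relative to the gene's median over the 13 libraries other than FC3 and RT3. The FC3 and RT3 columns are raised over nearly all rows, and the columns numbered 8 are raised for a small set of genes.

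The genes differed in how high FC3 stood. Rpl14, a large subunit protein (chr9:120480632-120483770 in mm9, plus strand), had the largest difference, 2.01. Its UQ counts were 3387, 3850, 4004, 3507 and 3401 in CC3 to CC8, 14130, 3390, 3534, 3464 and 3558 in FC3 to FC8, and 7052, 3586, 3550, 4205 and 3691 in RT3 to RT8. The 8 FC and RT libraries besides FC3 and RT3 overlapped CC. Rpl36, Rps15, Rpl38 and Rps24 followed at 1.99, 1.96, 1.90 and 1.90.

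Rps15, a small subunit protein (chr10:79755176-79756859, plus strand), showed the same order. Its counts were 9832, 11854, 11835, 10243 and 11318 in CC, 39633, 10362, 9872, 11062 and 10076 in FC, and 20737, 11412, 10544, 12685 and 10453 in RT. Rps14, a small subunit protein whose loss is known from the 5q- syndrome, had 7117, 7462, 7850, 6726 and 7458 in CC, 21439, 7042, 6638, 7233 and 6766 in FC, and 12559, 7092, 6959, 8202 and 6238 in RT. For both genes FC3 and then RT3 were highest, and the FC and RT libraries numbered 5 to 8 overlapped the CC libraries.

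Rplp0 (chr5:116009476-116013736, plus strand) encodes the stalk protein P0 and is often used as a reference gene in quantitative PCR. Its counts were 7776, 8397, 8751, 7862 and 9144 in CC, 19572, 8088, 7710, 8339 and 7963 in FC, and 13586, 8544, 7987, 9308 and 8244 in RT. In UQ counts it averaged 8386 ± 582 in CC and 8025 ± 262 in the 4 FC libraries besides FC3 (SD, n = 5 and 4), and 10334 ± 5169 when FC3 was included.

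At the other end were Rpl5, Rpl24, Rpl7a, Rpl10 and Rpl15, at 0.18, 0.25, 0.38, 0.51 and 0.51. Rpl5 (chr5:108329521-108338024, plus strand) encodes a large subunit protein that binds 5S rRNA and MDM2. It had 409, 433, 397, 371 and 511 UQ counts in CC, 477, 397, 447, 395 and 550 in FC, and 423, 344, 363, 354 and 611 in RT. Its highest values were in the libraries numbered 8 and not in FC3. Rpl24 (chr16:55966388-56009026, plus strand) had 3603, 3363, 3375, 3288 and 3382 in CC, 4181, 3455, 3540, 3467 and 3651 in FC, and 3128, 3372, 3415, 3259 and 3591 in RT, and was the gene with RT3 as the lowest of all libraries. Its gene model spans a longer neighbouring coding transcript, so the count is not that of the ribosomal protein mRNA alone. In all, 20 of the 85 genes overlap another annotated gene, and whether the counting used strand is not stated in the sources used here.

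Large and small subunit genes had close medians. The FC3 difference had a median of 1.42 over 45 large subunit genes and 1.44 over 31 small subunit genes, and the RT3 difference 0.71 over both. Genes with a pyrimidine run of at least 8 at the RefSeq start had a median FC3 difference of 1.38 (31 genes) and those without 1.26 (30 genes), with ranges that overlapped nearly in full. These are descriptions, with no test, since all genes share the libraries.

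Ribosomal protein mRNAs are short, and in FC3 and RT3 short genes in general were high. For lengths and gene lists, a library was set against the median of the 13 libraries other than FC3 and RT3. Median FC3 deviations of the other tested genes, in log2 UQ counts, were 0.51, 0.72, 0.74, 0.59, 0.33, -0.06 and -0.52 over exonic lengths of up to 600, 900, 1200, 1800, 3000 and 5000 bases and longer. The ribosomal protein genes stood above those medians in each bin, at 1.44, 1.48, 1.40, 1.34, 1.24, 1.49 and 0.45, with 10, 13, 9, 21, 18, 10 and 2 genes. Exonic length counts all annotated exons of a gene merged. Its median over the 83 genes was 1444 bases, against 710 for the transcript used for levels per length. The bins of long genes can thus hold short ribosomal protein mRNAs, such as Rpl18 with 4042 exonic bases and a transcript of 679. In RT3 the other genes had 0.36, 0.46, 0.47, 0.39, 0.24, 0.01 and -0.30, and the ribosomal protein genes 0.85, 0.80, 0.78, 0.75, 0.66, 0.85 and 0.08. Among the 83 genes themselves the FC3 difference had a Pearson r of -0.33 with log2 exonic length and -0.25 with log2 transcript length. These are genes measured in the same libraries. The part of length in the FC3 and RT3 levels was not tested.

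**Figure D3:**
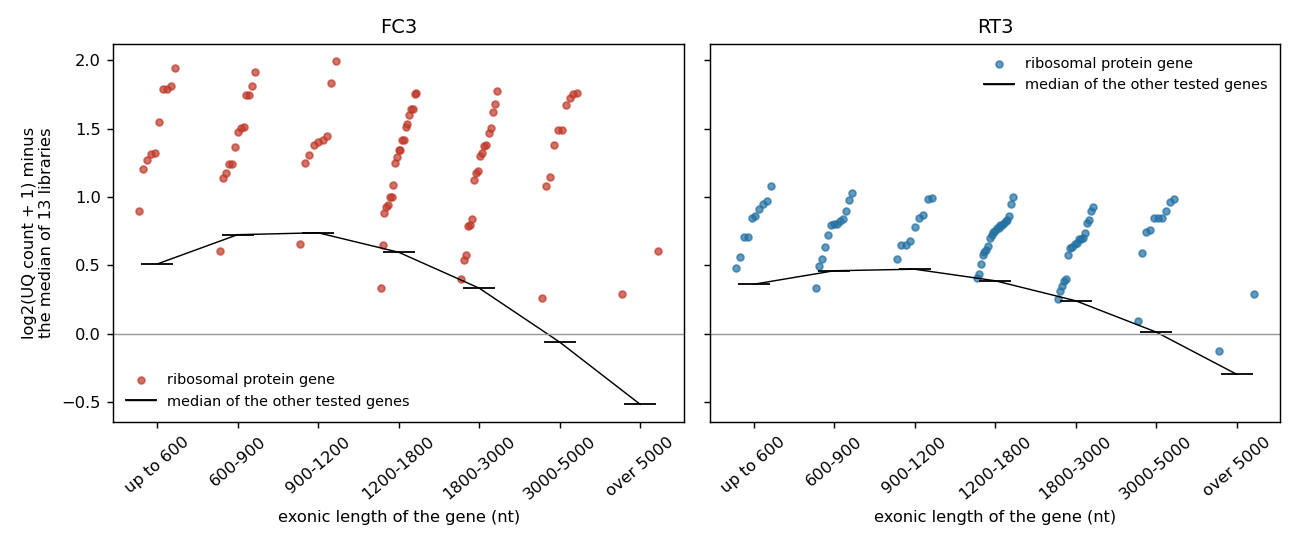
FC3 (left) and RT3 (right) deviations on the y axis (log2 UQ count plus 1, minus the median of 13 libraries) by bin of exonic gene length on the x axis, with 1 point per ribosomal protein gene and black marks for the median of the other tested genes. The median of the ribosomal protein genes lies above that of other genes in each bin, for example 1.44 against 0.51 in FC3 for genes of up to 600 bases.

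Other parts of the translation machinery, from lists by role, were less raised in these libraries. The median deviation in FC3 and RT3 was 1.37 and 0.74 over the ribosomal protein genes and 1.40 and 0.80 over 57 tested ribosomal protein pseudogenes. It was 1.04 and 0.57 over 75 mitochondrial ribosomal protein genes, 0.60 and 0.37 over 20 elongation factor and other genes with terminal pyrimidine tracts, 0.52 and 0.41 over 25 initiation factors, and 0.36 and 0.26 over 32 ribosome biogenesis and RNA polymerase I genes. The 24 tested genes of mTOR and S6 kinase signalling had -0.30 and -0.21. FC3 was the highest library for 69 of 75 mitochondrial ribosomal protein genes and for 8 of 24 mTOR genes, beside 36.2% of all genes.

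Markers of other cells moved with the same libraries. The summed UQ counts of 6 oligodendrocyte markers were 388736 in FC3 and 349120 in RT3 against 227777 to 272083 in the other 13 libraries, and those of 4 blood genes were 7624 and 6303 against 1860 to 5113. The 5 astrocyte markers summed to 63522 in FC3 and 73410 in RT3 (13 libraries 73661 to 81749), and the 6 neuronal markers to 101407 and 113082 (105863 to 127712). The 5 endothelial markers summed to 12453 and 9926 (7884 to 10024) and the 5 microglial markers to 15130 and 15036 (12992 to 14087). The sums do not speak for most of these genes, since FC3 was the highest library for 1 of the 5 endothelial and 2 of the 5 microglial markers, and the median deviations in FC3 were -0.35 and -0.20. The 5 choroid plexus markers summed to 7127 and 6854 within a range of 1681 to 51122, so those 2 libraries were not the highest there. None of these markers was at 0 in any library. Their part in the ribosomal protein levels was not tested.

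Whether training changed the ribosomal protein genes was asked by comparing FC with CC. None of the 83 genes passed a false discovery rate (FDR) of 0.01 in the edgeR likelihood ratio test after RUVs, against 2.24% of all 18008 genes. At an unadjusted p of at most 0.05 there were 3 (Rpl7a, Rps10 and Rpl10a), against 16.5% of all genes. The quasi-likelihood test of edgeR and DESeq2 also called 0, with 5 and 2 at an unadjusted p of at most 0.05. The median log2 fold change over the genes was 0.01 (-0.11 to 0.15), beside -0.01 over all tested genes. Rpl7a and Rpl10a are among the 18 negative control genes used to estimate the factors, so their tests after RUVs are not independent of the factors. With ribosomal proteins taken out of the control genes, edgeR called 0 of the 83, against 388 of all 18008 genes. There 2 had an unadjusted p of at most 0.05, against 2908 of all genes, and the median was 0.0074. Within-group deviations of all tested genes, the 83 included, still entered the factors, so that fit does not remove the dependence. The 2 genes nearest to the threshold were Rpl7a, at -0.09 ± 0.03 (SE, FDR = 0.106), and Rps10, at 0.14 ± 0.05 (FDR = 0.121).

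Rps10, a small subunit protein at chr17:27767367-27773574 on the minus strand, had 1389, 1247, 1428, 1272 and 1191 UQ counts in CC, 3988, 1296, 1298, 1345 and 1590 in FC, and 2308, 1202, 1199, 1467 and 1571 in RT. Apart from FC3 and RT3, only FC8, RT7 and RT8 lay above the CC range. With the library number as a block after RUVs, Rps10 passed the threshold at 0.18 (edgeR, FDR = 0.0027), as 1 of 83 genes against 2.53% of all genes. This fit had fewer residual degrees of freedom than the main RUVs model, which had 7, and only the likelihood ratio test was run. In the main model that test called 403 of all genes in FC against CC, and the quasi-likelihood test 98. Same-numbered FC and RT libraries deviated together in every pair, CC with FC or RT libraries did not, and what the numbers mark is not given in the sources used here.

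Without RUVs the fold changes were larger, with larger standard errors. In the UQ model the median log2 fold change of FC over CC was 0.34 and 82 of 83 genes were above 0, and 0 passed an FDR of 0.01 in edgeR, against 0.189% of all genes. At an unadjusted p of at most 0.05 there was 1 (Rps10), against 3.07% of all genes, and none by the quasi-likelihood test or by DESeq2. Rpl14 was at 0.63 ± 0.33 and Rps15 at 0.56 ± 0.32 (SE, both with an FDR of at least 0.966). Without FC3 alone the UQ median was -0.071 and 10 of 83 genes were above 0, so that the direction of the UQ fold changes rested on that 1 library. The within-group SD of log2 values had a median of 0.43 over the ribosomal protein genes by UQ and 0.05 after RUVs, beside 0.25 and 0.06 over all genes. A drop follows from the method, since RUVs takes out deviations within groups.

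With all 3 libraries numbered 3 left out, 3 genes passed the threshold after RUVs in FC against CC, all lower in FC. They were Rps24 at -0.17, Rpl21 at -0.13 and Rpl32 at -0.12 (edgeR, FDR = 0.0041, 0.0070 and 0.0089). Among all genes 925 passed (5.21%). Here too the residual degrees of freedom were fewer than in the main RUVs model, and only the likelihood ratio test was run. In that fit 34 of the 83 genes had an unadjusted p of at most 0.05, against 23.4% of all genes, 11 were above 0 and the median was -0.068. With FC3 and RT3 left out but CC3 kept, none passed against 2.77% of all genes, 8 had an unadjusted p of at most 0.05 against 17.1%, and the median was -0.043.

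**Figure D4:**
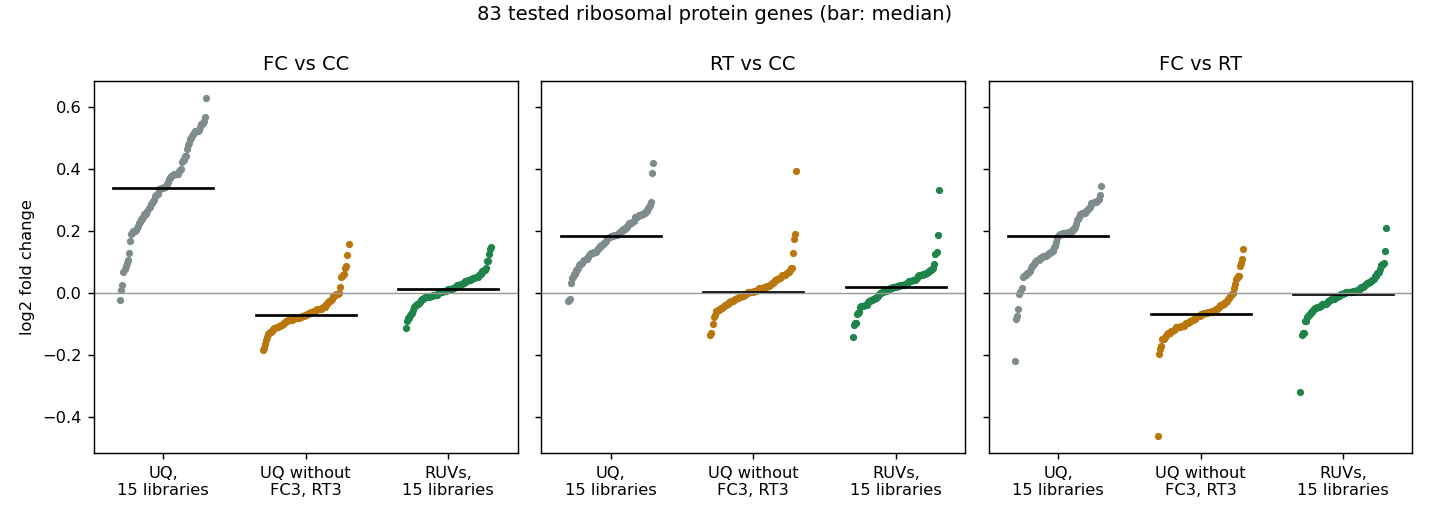
Log2 fold changes of the tested ribosomal protein genes (points, with a bar at the median) in the 3 comparisons, by UQ, by UQ without FC3 and RT3, and after RUVs. UQ medians of 0.34, 0.18 and 0.18 (FC against CC, RT against CC, FC against RT) stand beside RUVs medians of 0.01, 0.02 and -0.00.

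Retrieval was compared with CC in the same way. None of the 83 genes passed after RUVs in edgeR, against 1.01% of all genes, and 3 (Rpl35, Rpl13a and Rpl11) had an unadjusted p of at most 0.05, against 11% of all genes. The quasi-likelihood test and DESeq2 called 0 as well, with 8 and 3 at that unadjusted p. Rpl35, which also belongs to the negative control genes, was at 0.19 ± 0.06 (SE, edgeR FDR = 0.122). Rpl13a, known as part of a complex that silences translation in myeloid cells, was at 0.06 ± 0.02 (FDR = 0.307), and Rpl11, which binds MDM2 with Rpl5, at -0.10 ± 0.05 (FDR = 0.404). The median was 0.02 after RUVs and 0.18 by UQ, where 80 of 83 genes were above 0, 0 passed against 0.106% of all genes and 0 had an unadjusted p of at most 0.05 against 1.39%, as in both other tools. Without FC3 and RT3 the UQ median was 0.0042 and 47 of 83 genes were above 0, and the RUVs median was 0.0048.

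FC and RT were compared last. After RUVs 0 of 83 genes passed in edgeR, against 0.122% of all genes, and 6 had an unadjusted p of at most 0.05 (Rpl24, Rpl35, Rpl5, Rpl7a, Rps20 and Rps27), against 10.7%. Rpl35 and Rpl7a belong to the negative control genes, as said above. The other tools called 0, with 5 by the quasi-likelihood test and 4 by DESeq2 at the unadjusted p. Rpl24 was at 0.10 ± 0.04 (SE, edgeR FDR = 0.263) and Rpl5 at 0.14 ± 0.07 (FDR = 0.423). The median was -0.00 after RUVs and 0.18 by UQ, where 78 of 83 genes were above 0. By UQ 0 genes passed, as over the whole table (0%), and 0 had an unadjusted p of at most 0.05 against 0.677% of all genes, with 0 by the quasi-likelihood test and 1 by DESeq2. The direction of the UQ values rested on FC3. Without FC3 alone the UQ median was -0.247 with 3 of 83 genes above 0, and without FC3 and RT3 it was -0.070 with 10 above 0. After RUVs without FC3 and RT3 the median was -0.042 with 19 of 83 genes above 0, none passed against 0.347% of all genes, and 12 had an unadjusted p of at most 0.05 against 12.8%. FC is shared by this comparison and FC against CC, and the 3 comparisons are not independent.

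Ranges of the libraries were also set side by side without a model. FC and CC did not overlap for 0 of the 83 genes, against 0.961% of all tested genes, and RT and CC for 0, against 1.35%. The 4 FC libraries besides FC3 were all below CC for 0 genes, against 1.28%, and all above CC for 0, against 1.79%. Beside shares this small over all genes, 0 of 83 is not a result about the ribosomal protein genes. FC3 was the highest library for 80 of the 83, so FC could not lie wholly below CC for those.

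The choroid plexus markers passed the threshold in comparisons where no ribosomal protein gene did. After RUVs 4 of the 5 were higher in FC than in CC, 1 higher in RT than in CC and 3 higher in FC than in RT. Among all genes 2.24%, 1.01% and 0.122% passed in these comparisons, in either direction. The FC libraries differed widely. Ttr had 6174, 46548, 2332, 4958 and 19660 UQ counts in FC3 to FC8, against 547 to 1153 in CC. The share of these cells and their RNA per cell cannot be told apart. Of the lists of translation genes, none had a gene past the threshold in any comparison in either model. The number with an unadjusted p of at most 0.05 in FC against CC after RUVs was 4 of 20 for elongation factors and related genes, 5 of 25 for initiation factors, 4 of 32 for biogenesis, 3 of 24 for mTOR signalling, 4 of 75 for mitochondrial ribosomal proteins and 7 of 57 for ribosomal protein pseudogenes, beside 16.5% of all genes.

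Rps6, the substrate of S6 kinase, is counted low for a ribosomal protein gene. At chr4:86500564-86503316 on the minus strand it had 399, 375, 433, 419 and 510 UQ counts in CC, 626, 397, 367, 374 and 469 in FC, and 529, 399, 297, 374 and 498 in RT. It was at -0.08 ± 0.08 in FC against CC (edgeR after RUVs, FDR = 0.687) and at -0.14 ± 0.08 in RT against CC (FDR = 0.508). FC8, RT8 and CC8 lay above all libraries numbered 5, 6 and 7.

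Levels per length set these genes far apart, although the ribosome holds their products in about equal amounts. In UQ counts per kilobase of transcript, averaged over the 13 libraries, Rplp1, a stalk protein, was highest at 34250, followed by Rps15 at 21777, Rps21 at 18616 and Rpl4 at 17423. In CC, FC (without FC3) and RT (without RT3) Rplp1 was at 34983 ± 3770, 32469 ± 3030 and 35115 ± 5547, so that the groups did not differ beyond their spread. The lowest were Rpl3l at 20.1, Rpl23a at 127 and Rpl5 at 210. Rpl3l is the paralog of Rpl3 used in striated muscle, and its 16 to 38 UQ counts give it the widest spread of the genes, a coefficient of variation of 28.5% over the 13 libraries. Rpl23a and Rpl5 belong to every cytosolic ribosome, and in both genes 100% of the 100-base coding windows had an exact copy elsewhere in the genome. The median of the 83 genes was 3595.

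Paralogs were counted beside their partners. Rpl22 was at 12118 per kilobase and Rpl22l1 at 2393, Rpl7 at 7484 and Rpl7l1 at 814, Rpl36a at 1086 and Rpl36al at 3223, and Rps27 at 322 and Rps27l at 807. Rpl36al and Rps27l thus stood above the genes they are named after. Exact copies covered 100% of the coding windows of Rpl36a and Rps27, against 55.0% for Rpl36al and 0% for Rps27l. Rps4x was at 8985 and Rps4y2 at 1347. Rps19bp1, which encodes a protein that binds Rps19 and not a ribosomal protein, was at 1034, and its FC3 difference of 1.53 was within the range of the ribosomal proteins.

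Copies elsewhere went with the level. Genes were put in order by the share of their 100-base coding windows with an exact copy elsewhere. The median level per kilobase was 7115 for the 7 tested genes with no such window, 11856 for the 11 genes with under 30%, 5638 for the 23 with 30 to under 70%, 3202 for the 17 with 70 to under 100%, and 587 for the 25 with 100%. Over the 83 genes the share and the log2 level had a Pearson r of -0.486 and a Spearman rho of -0.669. The points share the 15 libraries and the annotation, and no p is given. The 25 genes at 100% ran from 127 to 5086, a range that overlaps those of the other bins. A pair that matched 2 places was not counted, so the level of these 25 genes was not read as that of their mRNA.

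The libraries numbered 8 were high for some of the copied genes. CC8, FC8 and RT8 were all above the 9 libraries numbered 5, 6 and 7 for 10 of the 83 genes, against 1.29% of all tested genes, and all below for 0, against 0.744%. The 10 were Rps16, Rps23, Rps27, Rps29, Rpl5, Rpl17, Rps6, Rpl10, Rpl28 and Rpl12, with log2 differences of 0.72, 0.70, 0.67, 0.58, 0.52, 0.47, 0.37, 0.32, 0.31 and 0.26. All 10 belong to the 25 genes whose every 100-base coding window has an exact copy. The median difference was 0.18 over those 25 genes, with 20 above 0, and -0.05 over the genes with 70 to under 100%, with 7 of 17 above 0. It was -0.07 in each of the other 3 bins. Of the 57 tested pseudogenes, 12 had the 3 libraries above.

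Rps27 (chr3:90016593-90017573, minus strand), a zinc finger protein of the small subunit, shows this pattern. It had 98, 94, 122, 80 and 143 UQ counts in CC, 246, 98, 94, 111 and 168 in FC, and 161, 95, 87, 98 and 156 in RT. The value for number 8 was the highest in CC and the next highest in FC and RT after number 3. Rpl10 (chrX:71516151-71518474, plus strand), which completes the large subunit's peptidyl centre late in assembly, had 388, 472, 450, 462 and 563 in CC, 610, 388, 420, 437 and 520 in FC, and 550, 471, 466, 448 and 586 in RT.

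Rpl38 (chr11:114529838-114533645, plus strand) went the other way in part. It had 1219, 1364, 1418, 1158 and 1341 in CC, 4538, 1233, 1191, 1359 and 855 in FC, and 2389, 1361, 1313, 1459 and 854 in RT. FC8 and RT8 were the lowest of all libraries and CC8 was not, with a difference of -0.40. The difference between the libraries numbered 8 and the others had an r of 0.486 (rho 0.570) with the share of copied windows and of -0.587 (rho -0.567) with the log2 level per kilobase, over 83 genes. Copies, level and library number cannot be told apart here.

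**Figure D5:**
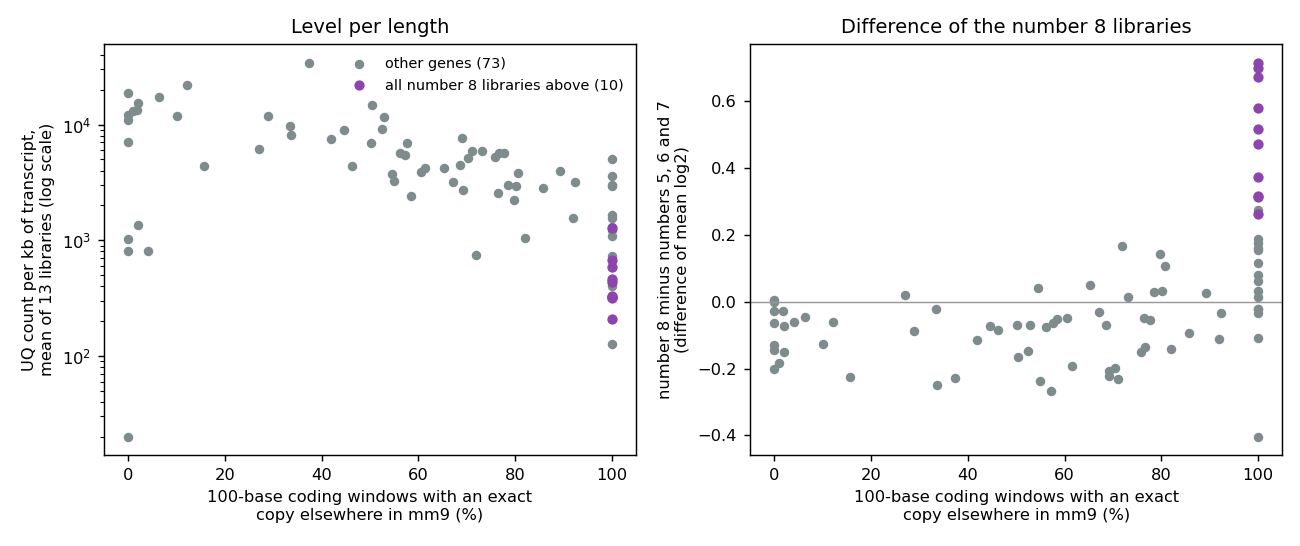
Level per kilobase of transcript and the difference of the libraries numbered 8 from those numbered 5, 6 and 7, both per tested gene (points) against the share of its 100-base coding windows that occur exactly elsewhere in mm9. Genes at 100% are lower (median 587) and hold the 10 genes whose 3 libraries numbered 8 are above the other 9.

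Outside FC3 and RT3 the genes varied little. The coefficient of variation over the 13 libraries had a median of 7.99%, from 3.55% for Rpl24 to 28.5% for Rpl3l, beside 7.60% over all tested genes. With FC3 and RT3 included the medians were 37.4% and 16.8%. The genes outside the list whose log2 level followed the mean of the ribosomal protein genes most closely over the 13 libraries were Ric8 (Pearson r 0.967), Aup1 (0.956), Gm14303 (0.952), Ncaph2 (0.947) and Polr2g (0.943). Gm14303 is the annotated pseudogene that holds the Rps29 copy printed above, and the others do not encode ribosomal proteins.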

How the data were processed

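The authors made polyA-selected libraries (TruSeq, 200 to 400 bp, 100-base paired reads), aligned them to mm9 with GSNAP, kept pairs mapped uniquely and concordantly, and deposited HTSeq 0.6.1 counts per Ensembl release 65 gene, one column per library. The deposited values are raw counts, not normalized. Ribosomal protein genes and gene lists were chosen with earlier results of these data known.

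Genes were kept where over 10 reads were counted in over 5 libraries. All 15 libraries entered one model per normalization, with upper quartile (UQ) factors alone or with 5 RUVs factors, a common then tagwise dispersion, likelihood ratio tests in edgeR 4.0.16 (R 4.3.3) and Benjamini-Hochberg adjustment at 0.01. RUVs was written from its published description and run with the study's 625 negative control genes. Log2 values outside the models are of UQ counts plus a pseudocount of 1. Levels per length use one transcript per gene. Copies were searched with blastn 2.17.0 in mm9 and exact 100-base windows by string matching. DESeq2 1.42.0, the quasi-likelihood test, other filters, normalizations and left-out libraries served as alternatives. The scripts were tested on simulated data.

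Replicates are different mice. No pair of libraries of a group agreed within sampling noise (lowest chi-square per degree of freedom 6.29). Residuals of same-numbered FC and RT libraries correlated at 0.380 to 0.919 over 14998 genes. Those of same-numbered CC and FC ran from -0.491 to 0.348, and of CC and RT from -0.508 to 0.111. Differently numbered FC and RT libraries ran from -0.810 to 0.668, and all negative values involved FC3 or RT3. Among numbers 5 to 8 the differently numbered pairs ran from 0.121 to 0.668. FC5 and FC7 correlated better with RT libraries of another number than with their own. These values do not settle whether the numbers pair FC with RT. What the numbers mark is not given in the sources used here. Named genes were those past the threshold, a set fixed by role, the 5 largest and 5 smallest FC3 differences, and the 3 highest and 3 lowest levels per length; genes named for the libraries numbered 8, for alternative fits or for an unadjusted p were chosen after their values were seen. The symbols Rpl41, Rps27rt and Rps4l were not found in the annotation, and whether these genes stand there under other names was not checked. RefSeq start windows belong to GRCm38.p6 and were not joined to mm9 coordinates.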

Additional observations from a re-analysis of the deposited data

Results flagged for a closer look

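In groups of 5 libraries, a value was set apart when the gap between the highest or lowest library and its neighbour, as a share of the group's range, was above Dixon's critical value, which chance gives in about 1 of 20 groups. FC3 was highest in each of these FC results and RT3 in each of the RT results, so they repeat 1 pattern and are not separate findings. In FC the share was 0.947 for the level of the ribosomal protein genes, 0.965 for their percent of reads and 0.929 for the percent of reads in their pseudogenes. Among the genes given library by library it was 0.947 for Rplp0, 0.960 for Rps14, 0.960 for Rps15, 0.984 for Rpl14, 0.731 for Rpl24, 0.891 for Rps10 and 0.863 for Rpl38. In RT it was 0.773 for the level, 0.748 for the percent of reads, 0.720 for the pseudogenes, 0.764 for Rplp0, 0.783 for Rps15 and 0.813 for Rpl14.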

How the results depend on the processing

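Across 29 alternatives per comparison after RUVs and 25 by UQ, calls of ribosomal protein genes appeared in 2, both in FC against CC after RUVs. There were 3 without CC3, FC3 and RT3, where Rps24 passed at -0.17, and 1 with the replicate block. Both fits had fewer residual degrees of freedom than the main RUVs model and used the likelihood ratio test only. The block changed no other call. Medians moved by more than the spread in these fits. Without FC3 and RT3 the RUVs median was -0.043 in FC against CC and -0.042 in FC against RT, and the UQ median -0.071, 0.0042 (RT against CC) and -0.070. Without all libraries numbered 3 the RUVs medians were -0.068, -0.017 and -0.045 and the UQ medians -0.088, -0.017 and -0.069, for FC against CC, RT against CC and FC against RT. Without all libraries numbered 8, chosen after seeing the data, the RUVs median of RT against CC was 0.046 and the UQ medians were 0.44 (FC against CC) and 0.26 (RT against CC). With the block the UQ medians were 0.20 (FC against CC) and 0.099 (FC against RT). By CPM the FC3 level was 1.03. Leaving out 1 library at a time gave RUVs medians from -0.0057 to 0.027, from 0.0065 to 0.044 and from -0.034 to 0.0061, UQ medians from -0.071 to 0.435, from 0.0044 to 0.234 and from -0.247 to 0.352, in the same order of comparisons, and 0 calls each time. The cause of these shifts was not tested. Reads that fit more than 1 place were not counted, so counts of genes with exact copies were not read as the level of their mRNA. How many reads were lost in this way was not measured. Reads were also counted at a copy, with a mean of 3650 UQ counts over the 13 libraries for Gm14303. Which gene those reads came from was not tested. The 5 libraries a group, with 2 that stand apart, limit what can be called.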
